A study of Bos taurus with 6 samples.

Results

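Capillaries reach muscle fibres and fat cells alike, and RNA from their endothelial lining is part of any piece of whole muscle. The 10 genes described here were listed by name as a measure of that RNA: PECAM1, VWF, CDH5, KDR, FLT1, TEK, TIE1 and ENG, which mark endothelial cells, and VEGFA and VEGFB, which encode growth factors that act on them. All 10 were found by symbol among the 23015 gene rows of the count files, and all 10 were among the 15039 rows with enough counts to be tested.

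RNA was taken from the longissimus thoracis (LT) of Hanwoo (Korean native cattle) steers, 1 library per steer. Steers 3-8, 10-8 and 10-9 (32.5, 33.8 and 34.5 months old) had a high number of fine marbling particles (NFMP), the small flecks of intramuscular fat seen on the cut face of the muscle. Steers 3-1, 3-3 and 10-16 (37.8, 33.7 and 35.4 months old) had a low NFMP. All steers were fed commercial feed under conventional management, and the groups were not treated. Library totals lay between 16283873 and 17192750 counts. No pair of libraries agreed within sampling noise. The labelled tissue held its defining RNA: the summed level of 6 muscle fibre genes (ACTA1, CKM, MB, TTN, MYH7 and MYH2) lay between 1541020 and 2020650 normalized counts in every library, where a normalized count is the count scaled to the mean effective library size.

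Vascular endothelial growth factor A (VEGFA) is the main signal for capillary growth and is released by muscle fibres among other cells. It binds the receptor KDR (VEGFR2), which carries most of the growth signal, and FLT1 (VEGFR1), which binds more tightly and, also as a soluble form, holds the ligand back. VEGFB binds FLT1 and has been linked to the endothelial handling of fatty acids. TEK (TIE2) is the receptor of the angiopoietins and TIE1 its partner. ENG (endoglin) is a co-receptor of the TGF-beta family, CDH5 (VE-cadherin) and PECAM1 join neighbouring endothelial cells, and VWF is the clotting protein that they store. PECAM1 and VWF are also found in platelets, and PECAM1 on leukocytes.

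When the 3 high-NFMP steers were set against the 3 low-NFMP steers, edgeR's quasi-likelihood test gave none of the 10 genes an adjusted p below 0.05, and none passed the threshold of the study (a fold change above 2 at an unadjusted p below 0.05). Over all tested rows 0.685% passed the first rule and 3.9% the second. At an unadjusted p below 0.05 alone, which 11.5% of all tested rows reached, 1 of the 10 passed. This was FLT1, at 1.53-fold in the high-NFMP group (95% interval 1.03 to 2.27, unadjusted p = 0.0369, adjusted p = 0.406). DESeq2 likewise gave no member an adjusted p below 0.05 and 1 member (FLT1) an unadjusted p below it. The unadjusted p of FLT1 was above 0.05 with library totals alone (0.0508), the leading number of the steer label as a covariate (0.0664), quantile normalization and limma (0.106) and age as a covariate (0.119). Of the 10 log2 fold changes 7 were above 0, as were 51.9% of those of all tested rows, and their median was 0.19, against 0.02 over the same rows. Among the 8 endothelial cell genes 5 were above 0, with a median of 0.06. With age as a term the median of the 10 was 0.06, and that of the 8 lay between 0.003 (library totals alone) and 0.21 (the leading label number as a term) with all 6 steers kept. In 7 of the 10 genes the 95% interval of the fold change lay inside 0.5 to 2, so a 2-fold difference in either direction fell outside it; the intervals of KDR, FLT1 and TIE1 reached past 0.5 or 2. In whole muscle, fewer endothelial cells and less RNA per cell cannot be told apart.

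**Figure D1:**
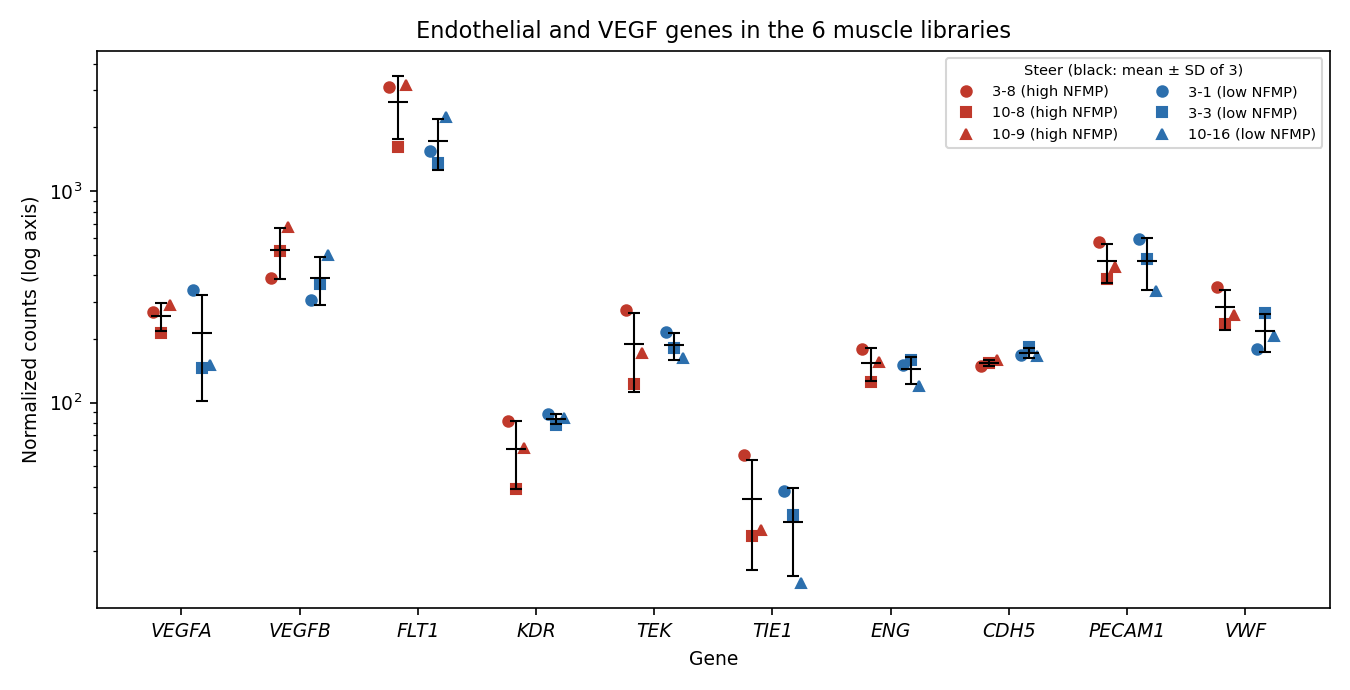
Normalized counts (log axis) of the 10 genes in each of the 6 steers, with the mean ± SD of each group of 3 in black. High-NFMP steers are red and low-NFMP steers blue. CDH5 is the gene whose groups do not overlap, with the 3 red points between 149 and 158.5 and the 3 blue points between 165.6 and 183.2.

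**Figure D2:**
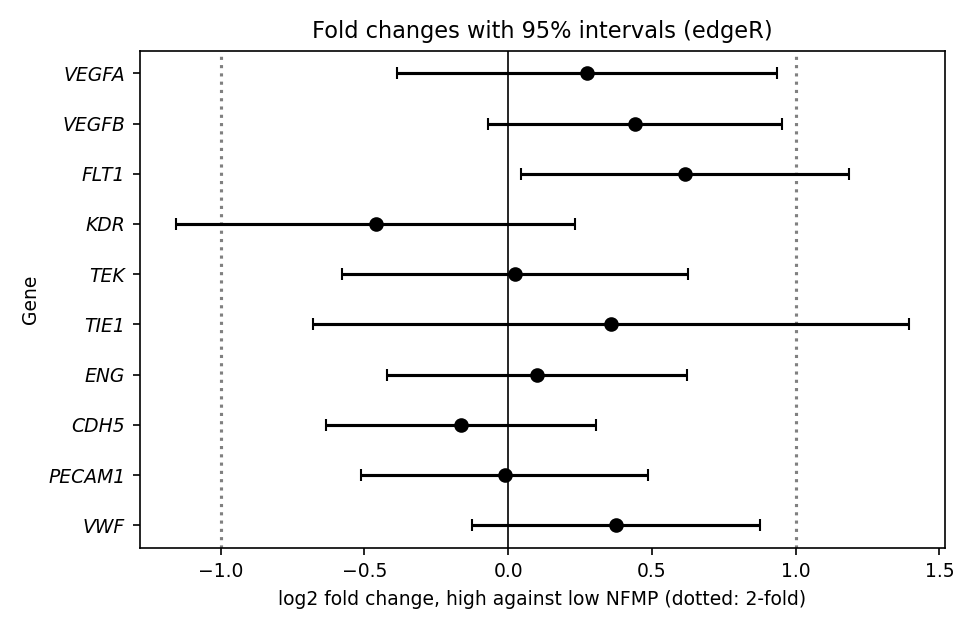
The log2 fold change of each gene (points) with its 95% interval (bars), high against low NFMP. The interval of FLT1, from 0.04 to 1.19, is the one that does not hold 0.

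The ligands had fold changes above 1 with intervals that held 1. VEGFA was counted 265, 193 and 288 times in high-NFMP muscle (steers 3-8, 10-8 and 10-9) and 356, 158 and 150 times in low-NFMP muscle (steers 3-1, 3-3 and 10-16). Steer 3-1 stood above all the others, while the other low-NFMP steers lay below every high-NFMP steer. The normalized counts were 257.3 ± 38.4 (SD, n = 3) against 212.8 ± 111 (SD, n = 3), a fold of 1.21 (95% interval 0.77 to 1.91, adjusted p = 0.769). Without steer 3-1, the oldest of the 6, the log2 fold change rose from 0.27 to 0.79 (unadjusted p = 0.0104, adjusted p = 0.346 by edgeR). With age as a term in the model it was 0.90 (unadjusted p = 0.0179, adjusted p = 0.453). Without steer 3-3 or 10-16 it fell to 0.06 and 0.12. The value for VEGFA therefore depended on each of the low-NFMP steers, and age was spread unevenly between the groups.

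VEGFB was counted 385, 468 and 673 times in high-NFMP muscle and 319, 393 and 494 times in low-NFMP muscle, in the same order of steers. The ranges overlapped, with steer 10-9 highest and steer 3-1 lowest. Normalized, the means were 528.4 ± 143 against 389.2 ± 99.2 (SD, n = 3 each), a fold of 1.36 (95% interval 0.95 to 1.94, unadjusted p = 0.0859, adjusted p = 0.514 by edgeR). In both groups the steer labels that begin with 10 had more VEGFB than those that begin with 3. What that number stands for is not stated in the labels or methods, and with it as a term the log2 fold change was 0.24 in place of 0.44. With a steer left out that value was 0.24 (without 10-9), 0.29 (without 3-1), 0.39 (without 3-3), 0.49 (without 10-8), 0.62 (without 3-8) or 0.70 (without 10-16). VEGFB lies beside NUDT22, DNAJC4 and FKBP2 in ARS-UCD2.0, by its RefSeq annotation. The log2 fold changes of these neighbours were -0.08, -0.02 and 0.03.

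The receptors of the VEGF family differed in direction. FLT1 was counted 3047, 1460 and 3153 times in high-NFMP muscle and 1612, 1472 and 2218 times in low-NFMP muscle. Steers 3-8 and 10-9 stood above every low-NFMP steer. The high-NFMP steer 10-8 had the lowest count and lay among the low-NFMP steers after normalization. The group means were 2624 ± 868 against 1715 ± 463 (SD, n = 3 each), a log2 fold change of 0.61 (standard error 0.26). Among steers whose label begins with 3, the high-NFMP steer had 3088 normalized counts and the low-NFMP steers 1542 and 1362. Among those that begin with 10, the high-NFMP steers had 1623 and 3162 and the low-NFMP steer 2239, so there the high-NFMP steers lay on both sides. The log2 fold change stayed above 0 whichever steer was left out. It was 0.90 without steer 10-8 (adjusted p = 0.156) and 0.89 without steer 10-16 (adjusted p = 0.275), and between 0.47 and 0.54 in the other 4 fits, where the unadjusted p by edgeR was 0.102 or higher.

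KDR was counted far less often, 81, 35 and 61 times in high-NFMP muscle and 92, 85 and 84 times in low-NFMP muscle. The low-NFMP steers lay close together, and steer 10-8 was lowest by a wide margin. Its 35 counts have an exact Poisson 95% interval of 24.4 to 48.7, which covers counting error only. After normalization they were 60.7 ± 21.6 against 83.8 ± 4.76 (SD, n = 3 each), a fold of 0.73 (95% interval 0.45 to 1.17, adjusted p = 0.628 by edgeR). Without steer 10-8 the log2 fold change was -0.20, and without steer 3-8 it was -0.74 (unadjusted p = 0.049, adjusted p = 0.327).

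Because both receptors were counted in the same library, their ratio does not depend on library size. There were 37.6, 41.7 and 51.7 FLT1 counts for each KDR count in high-NFMP muscle, and 17.5, 17.3 and 26.4 in low-NFMP muscle. Every high-NFMP value exceeded every low-NFMP value, with means of 43.7 ± 7.24 and 20.4 ± 5.19 (SD, n = 3 each). The ratio of KDR to PECAM1 also separated the groups, at 0.14, 0.10 and 0.14 against 0.15, 0.17 and 0.25. These were 2 of 8 ratios that were computed after the counts of the 10 genes had been seen. A two-sided exact permutation test of the mean log2 ratio gave p = 0.1 for each of them, the smallest p that 3 steers against 3 allow, and 0.4 after adjustment over the 8 ratios. The other 6 ratios (FLT1, CDH5, VWF and ENG to PECAM1, TIE1 to TEK, and VEGFA to VEGFB) overlapped between the groups. Both ratios that separated the groups contain KDR, so they are not independent. For KDR to PECAM1 the closest values of the groups were 0.143 in steer 3-8 and 0.148 in steer 3-1. They rest on 81 and 92 KDR counts, with exact Poisson intervals of 64.3 to 101 and 74.2 to 113, which overlap. Counting error was not part of the permutation test.

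The size of these ratios is one of counts on 2 genes and not of transcripts. In the 3′ mRNA method a read starts from the poly(A) tail or from another run of A, so the counts of a gene are not proportional to its length and depend on where its annotated end lies. FLT1 held between 49.8% and 71.3% of the summed counts of the 8 endothelial cell genes in a library, so their sum mostly follows FLT1. The sum was 3964 ± 1102 normalized counts in the high-NFMP group and 3014 ± 299 in the low-NFMP group (SD, n = 3 each). Leaving FLT1 out, the sum of the other 7 was 1339 ± 297 against 1299 ± 184.

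The angiopoietin receptor TEK was counted 270, 110 and 172 times in high-NFMP muscle and 226, 195 and 161 times in low-NFMP muscle. The highest and the lowest steer both belonged to the high-NFMP group. As normalized counts they averaged 189.5 ± 77.1 against 186.4 ± 27.3 (SD, n = 3 each), a fold of 1.02 (95% interval 0.67 to 1.54, adjusted p = 0.982 by edgeR). TEK overlaps IFT74 in ARS-UCD2.0, and IFT74 had between 177 and 395 counts in a library and a log2 fold change of -0.44. Whether reads were counted on both genes was not tested.

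TIE1 had the fewest counts of the 10 genes, 56, 21 and 25 in high-NFMP muscle and 40, 32 and 14 in low-NFMP muscle. The values ranged 4.02-fold from steer 10-16 to steer 3-8 after normalization, and the groups overlapped. The 14 counts of steer 10-16 have an exact Poisson 95% interval of 7.65 to 23.5. The fold was 1.28 (95% interval 0.62 to 2.63, adjusted p = 0.815 by edgeR), an interval that still held a value 2-fold higher in the high-NFMP group. With the leading label number as a term the log2 fold change went from 0.36 to 0.75 (unadjusted p = 0.0955 by edgeR), and without steer 10-16 to 0.07.

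ENG was counted 177, 113 and 156 times in high-NFMP muscle and 158, 172 and 119 times in low-NFMP muscle. The ranges overlapped, with steer 3-8 highest. Steer 10-8 had the lowest count, and steer 10-16 was lowest after normalization (120.1 against 125.6 in steer 10-8). The normalized counts were 153.8 ± 27.0 against 143.5 ± 20.6 (SD, n = 3 each), a fold of 1.07 (95% interval 0.75 to 1.54, adjusted p = 0.901 by edgeR).

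Of the junction genes, CDH5 was counted 147, 138 and 158 times in high-NFMP muscle and 175, 198 and 164 times in low-NFMP muscle. Every high-NFMP value was under every low-NFMP value, both after TMM normalization and per library total. CDH5 was the only one of the 10 genes whose groups did not overlap, whereas 17.1% of all tested rows had this pattern in one direction or the other. Normalized, the means were 153.6 ± 4.75 against 172.1 ± 9.69 (SD, n = 3 each). The fold was 0.89 (95% interval 0.64 to 1.24, adjusted p = 0.813 by edgeR). The coefficient of variation of the normalized counts was 3.09% in the high-NFMP and 5.63% in the low-NFMP group. The 158 counts of steer 10-9 have an exact Poisson interval of 134 to 185. That interval covers every high-NFMP count and, of the low-NFMP counts, 175 and 164 but not 198. The intervals of steers 10-8 (116 to 163) and 3-3 (171 to 228) do not overlap. Whether CDH5 varied between steers beyond counting error was not tested.

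PECAM1 was counted 566, 345 and 437 times in high-NFMP muscle and 622, 514 and 333 times in low-NFMP muscle. The highest and the lowest steer both had a low NFMP. The group means were 465.1 ± 97.9 against 469.0 ± 130 (SD, n = 3 each), and the fold was 0.99 (95% interval 0.70 to 1.40, adjusted p = 0.991 by edgeR). The overlapping genes MILR1 and LOC112442686 were counted at most 29 and 4 times in a library.

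VWF was counted 346, 212 and 258 times in high-NFMP muscle and 187, 287 and 205 times in low-NFMP muscle. Steer 3-8 was highest and steer 3-1 lowest, and the other 4 were mixed. After normalization they were 281.7 ± 60.8 against 217.2 ± 44.2 (SD, n = 3 each), a fold of 1.30 (95% interval 0.92 to 1.84, unadjusted p = 0.132, adjusted p = 0.574 by edgeR). With age as a term its log2 fold change went from 0.38 to 0.06, and without steer 3-8 to 0.18.

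Within the groups the steers were spread widely. Of the 8 endothelial cell genes, 4 were highest in steer 3-8 (TEK, TIE1, ENG and VWF), and 6 were among the 2 highest there. Its group mate 10-8 held a place among the 2 lowest in 6 of the 8 genes and among the 2 highest in none. In the low-NFMP group, steer 3-1 was among the 2 highest in 5 genes and steer 10-16 among the 2 lowest in 5. TEK thus ranged 2.24-fold over the 6 steers and CDH5 1.23-fold. Leaving out steer 3-8 turned the log2 fold changes of TEK, TIE1 and ENG to -0.34, -0.18 and -0.03, and the median of the 10 genes from 0.19 to -0.09, while without steer 10-8 that median was 0.35. The median of the 8 endothelial cell genes went from 0.06 to -0.16 without steer 3-8, without steer 10-8 it was 0.27, and without steer 10-16 it was -0.01.

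**Figure D3:**
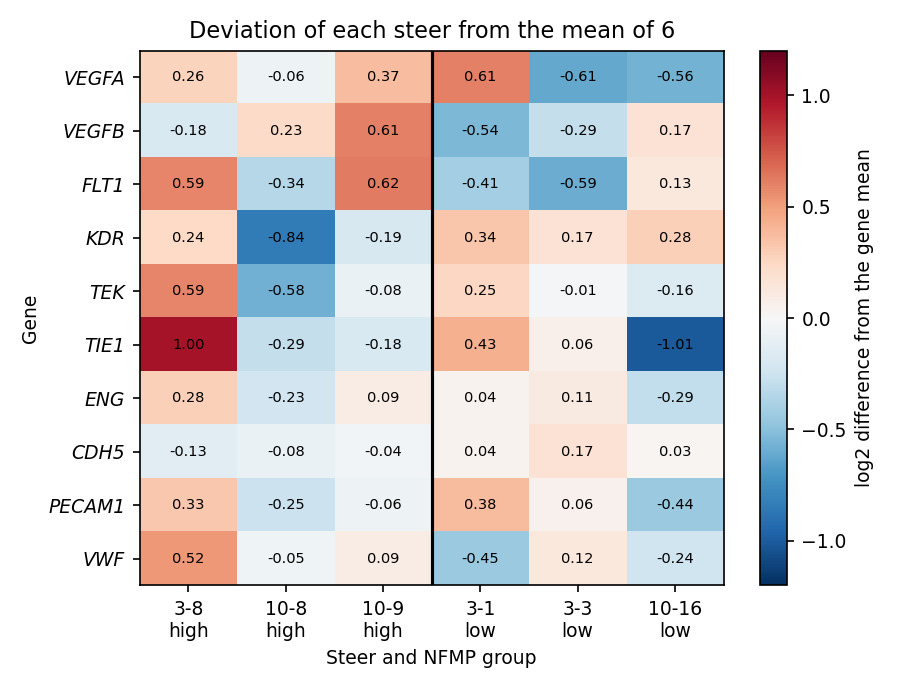
The log2 difference of each steer (columns, 3 high-NFMP steers left of the line) from the mean of the 6 steers, for each gene (rows). Red is above and blue below the mean: steer 3-8 is red in 8 of 10 rows, and steer 10-8 is blue in 9, with its lowest value, -0.84, at KDR.

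Several of the genes varied together from steer to steer. Over the 6 libraries, the Pearson correlation of log2 CPM (counts scaled to library size) was 0.93 between TIE1 and PECAM1, 0.87 between TIE1 and ENG, 0.84 between ENG and PECAM1, 0.81 between TEK and ENG, 0.80 between TEK and PECAM1 and 0.78 between TEK and TIE1. With deviations from the group means the same 6 pairs lay between 0.81 and 0.97, so the likeness was found within the groups. These 4 genes were picked out after their values were seen. Over all 28 pairs of the 8 endothelial cell genes the median was 0.38 and 20 were above 0 (by Spearman 0.20 and 18), while the median over all pairs of tested rows counted at least as often as TIE1 was -0.002. CDH5 did not follow the others, with correlations between -0.66 with FLT1 and 0.41 with KDR. The part of counting error in the values of CDH5 was not tested. VEGFB ran against PECAM1 at -0.68 and against KDR at -0.57. These are descriptions over 6 points, in which all genes of a library share its depth, its normalization and its mixture of cells.

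The mean standardized profile of the 8 genes was 0.92 in steer 3-8, 0.25 in 3-3, 0.20 in 3-1, 0.05 in 10-9, -0.52 in 10-16 and -0.90 in 10-8. It did not order the steers by NFMP, because the high-NFMP group held both ends. Of the 8724 other genes with a mean of at least 100 counts, LOC104973760, MSH3, WDR31, LOC101906012 and PPP1R2 had the profile most like it, with Pearson correlations between 0.97 and 0.98 over the 6 libraries. Correlations above 0.9 were reached by 58 genes, in a set of this size with 6 points each.

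Markers of other cells were read beside these values. The summed level of 5 adipocyte genes (ADIPOQ, PLIN1, LEP, CIDEC and FABP4) was 8398 normalized counts in steer 3-8 and between 2497 and 3689 in the other 5. Steer 3-8 was thus the highest both in fat cell RNA and in the profile of the 8 genes. Steer 10-8, the lowest in that profile, had the third highest adipocyte sum, 3395. The 5 adipocyte genes had log2 fold changes between 0.47 and 0.89. By edgeR none had an adjusted p below 0.05 (0.685% of all tested rows did). An unadjusted p below 0.05 was reached by 2 (ADIPOQ and CIDEC), and by 11.5% of all tested rows. The part of fat cells in the endothelial values was not tested.

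Red cell RNA was represented by few counts. The globin genes HBA, HBA1 and HBB had at most 10, 17 and 18 counts in a library. The summed level of the 4 platelet genes found (ITGA2B, ITGB3, GP9 and GP1BA) lay between 133 and 213 normalized counts in the high-NFMP group and between 164 and 198 in the low-NFMP group, with GP1BA at 0 counts in 4 of the 6 libraries. The 6 leukocyte genes summed to between 243.7 and 333.4 against between 198 and 285, with MS4A1 at 0 counts in 3 libraries. In every library the leukocyte sum was above the CDH5 level and below the level of PECAM1, the member also found on leukocytes. Counts of different genes are not a measure of cell shares, and the part of blood cells in the endothelial values was not tested. Pericytes and smooth muscle cells, which wrap small vessels, were represented by 12 genes. They summed to between 4153 and 4792 against between 4422 and 5087 normalized counts, and none of the 12 passed either rule. ABCC9 made up much of that sum, at 2136, 2177 and 1932 normalized counts in high-NFMP and 2842, 2721 and 2701 in low-NFMP muscle (unadjusted p = 0.0312, adjusted p = 0.379 by edgeR). Without it, a gene set aside after its values were seen, the other 11 summed to between 2017 and 2860 against between 1721 and 2365, and 8 of the 11 had a log2 fold change above 0.

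The wider pathway was read from 94 other genes in 6 lists, of which 91 were found and 88 tested. Of these 88, 56 had a log2 fold change above 0 (51.9% over all tested rows), and the median was 0.10. None had an adjusted p below 0.05, and 8 had an unadjusted p below it by edgeR. Over all tested rows 3.9% passed the threshold of the study. Among the 88, the 1 gene to pass it was P-selectin (SELP), which captures leukocytes on activated endothelium. It was counted 20, 15 and 36 times in high-NFMP muscle and 66, 29 and 73 times in low-NFMP muscle, with steer 3-3 below steer 10-9. Its log2 fold change was -1.15 (standard error 0.46, unadjusted p = 0.0238, adjusted p = 0.345). The number with an unadjusted p below 0.05 was thus 8 of 88, against 11.5% of all tested rows.

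By role, the other angiogenic ligands had a median log2 fold change of 0.07 over 14 genes, and the other endothelial receptors 0.10 over 17. The 23 tested junction and surface genes had a median of 0.07 and the 15 tested transcription factors 0.19. The 10 tested hypoxia and VEGF control genes had a median of 0.01 and the 9 angiogenesis inhibitors 0.10.

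**Figure D4:**
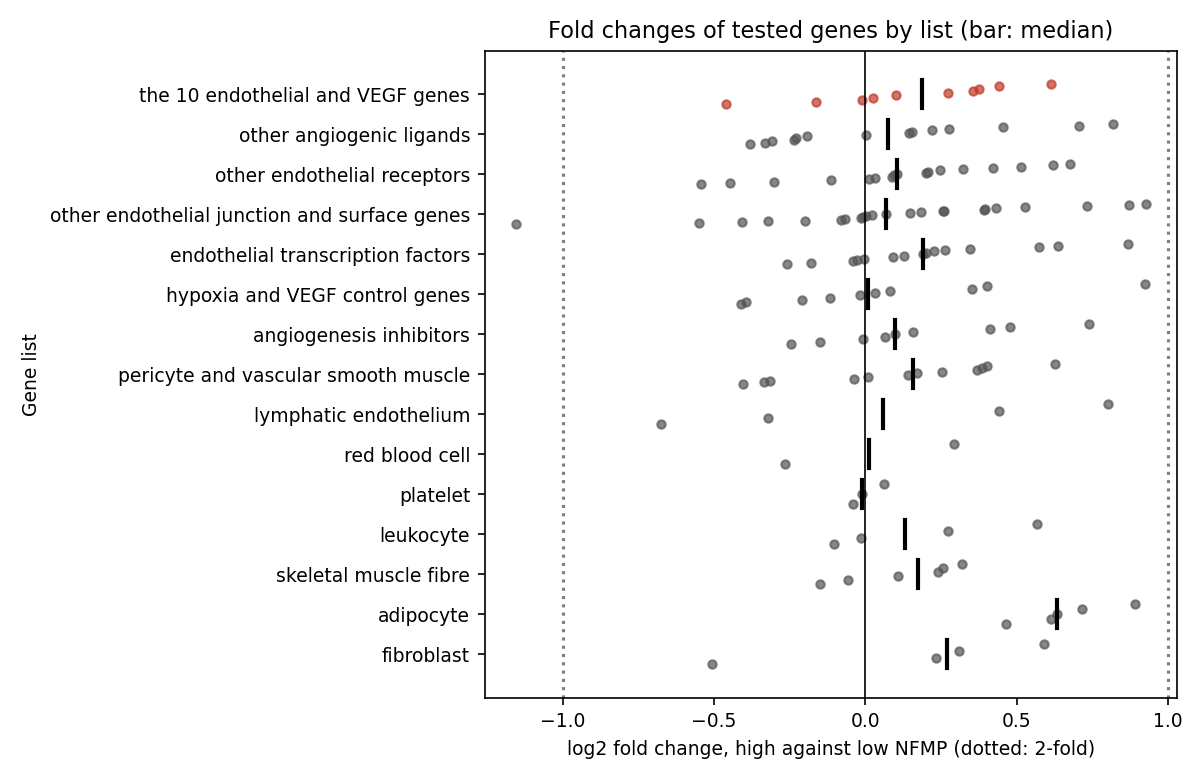
The log2 fold change of every tested gene (points), high against low NFMP, for the 10 genes (red) and for the other lists (grey), with the median of each list as a bar. SELP, at -1.15, is the point beyond the dotted 2-fold lines.

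The genes of these lists with an unadjusted p below 0.05, other than SELP, are named after their values were seen. PPARGC1A, the PGC-1alpha coactivator that raises mitochondrial genes and VEGFA in muscle, was counted 2812, 4608 and 4046 times in high-NFMP muscle and 2978, 1870 and 1747 times in low-NFMP muscle. Steers 10-8 and 10-9 stood above the low-NFMP steers, and steers 3-8 and 3-1 had nearly the same level. Its log2 fold change was 0.92 (unadjusted p = 0.00249, adjusted p = 0.145 by edgeR). THBS1, thrombospondin-1, an inhibitor of capillary growth, had 1005 ± 141 normalized counts against 601.7 ± 115 (SD, n = 3 each), and every high-NFMP value exceeded every low-NFMP value (log2 fold change 0.74, adjusted p = 0.138). ADM, the vasodilator adrenomedullin, likewise separated the groups, at 830.0 ± 158 against 509.0 ± 82.1 (log2 fold change 0.71, adjusted p = 0.166).

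The other 4 had larger adjusted p-values. CLDN5, a tight junction protein of endothelium, had a log2 fold change of 0.93 (adjusted p = 0.254 by edgeR), and NRP2, a co-receptor of VEGF family ligands, of 0.68 (adjusted p = 0.317). In both, every high-NFMP value exceeded every low-NFMP value. KLF2, a transcription factor induced by blood flow, had a log2 fold change of 0.64 (adjusted p = 0.408) with overlapping groups. EGLN1, an oxygen sensor that marks HIF proteins for breakdown, had every high-NFMP value under every low-NFMP value, with a log2 fold change of -0.41 (adjusted p = 0.413).

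Some listed genes carry counts of uncertain origin or spread widely between steers. LYL1, a transcription factor of blood and endothelial cells, had between 5406 and 8414 counts in a library, and it overlaps NFIX in ARS-UCD2.0, which had between 3221 and 5437. MCAM ranged from 69 counts in steer 10-9 to 1949 in steer 3-3, and the source of that spread was not tested. PROX1, which marks lymphatic endothelium and is also expressed in muscle fibres, had a log2 fold change of 0.80 (adjusted p = 0.0635 by edgeR), the largest of the 4 lymphatic genes. The other 3 were LYVE1 at 0.44, CCL21 at -0.32 and PDPN at -0.67, and their adjusted p was 0.691 or higher. The 2 tested red cell genes (ALAS2 and AHSP) had log2 fold changes of -0.26 and 0.29, and the 4 fibroblast genes lay between -0.51 and 0.59, with no gene of either list past either rule. The lowest of the fibroblast genes was PDGFRA, a receptor of platelet-derived growth factor, with every high-NFMP value under every low-NFMP value (unadjusted p = 0.0392 by edgeR). Of the 4 fibroblast genes it was the only 1 to separate the groups, as 17.1% of all tested rows did.

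**Figure D5:**
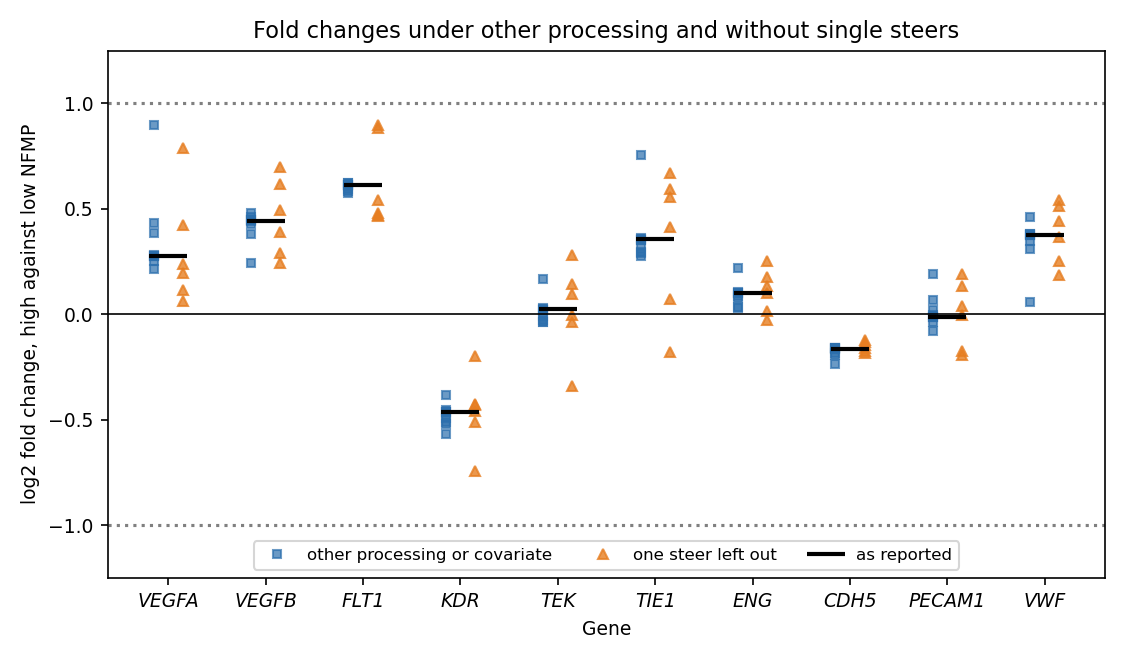
The log2 fold change of each gene, high against low NFMP, as reported (black bar), under 9 other kinds of processing or covariate (blue squares) and with each of the 6 steers left out (orange triangles). No value passes the dotted 2-fold lines, and the points of TEK, PECAM1, TIE1 and ENG lie on both sides of 0.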

How the data were processed

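RNA of LT muscle from 6 steers was sequenced by a 3′ mRNA method. The authors deposited raw read counts per gene symbol, without normalization. The methods name Tophat2 with HTSeq on UMD3.1 and also Bowtie2 with unique and multiple alignments, and the labels name Bowtie2 and bedtools. Neither the route that made the counts nor the use of strand is given in the sources used here. The groups came from the sample labels. Reads carry no molecular identifiers, so counting intervals cover counting error only.

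The model was fitted with edgeR 4.0.16 in R 4.3.3 (minimum count 10, minimum total 15, TMM factors between 0.916 and 1.08, robust quasi-likelihood test) over 15039 of 23015 rows, which held at least 99.8% of the counts of a library. Rows that repeat a symbol (176 extra) were kept apart. The p-values were adjusted by Benjamini-Hochberg over all tested rows, and intervals were taken from the log2 fold change, its F statistic and the degrees of freedom. One library stands for each steer. The edgeR p-values set the group difference against the variation between steers, in an estimate that draws on all tested genes and not on 1 gene alone. The fit was tested on simulated data. CPM for correlations used a prior count of 2.

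The 10 genes and the other lists were chosen with earlier results of these data known. All 10 genes are named, with any pathway gene past a threshold and the 5 genes most like the mean profile. The symbols ICAM2, SELE, SOX17, HBM, PF4 and PPBP of the lists were not analysed here. Neighbouring genes came from the RefSeq table of ARS-UCD2.0, another build, so no coordinates are given. The alternatives were other filters (no filter, or at least 10 counts in every library), RLE factors, library totals, DESeq2 1.42.0, quantile normalization of log2(count + 1) with limma 3.58.1, age or the leading label number as a term, summed rows of a symbol, and each steer left out.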

Additional observations from a re-analysis of the deposited data

How the results depend on the processing

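No member had an adjusted p below 0.05 or passed the p and fold change threshold in any of the 15 alternatives, where the lowest adjusted p was 0.156 (FLT1 without steer 10-8). Of 150 values, 10 genes in 15 alternatives each, 135 kept their direction. The other 15 changed it. TEK (0.02 as reported) was -0.0074 with no filter, -0.028 with library totals alone, -0.039 with quantile normalization and limma, -0.035 with age as a term, and between -0.34 and 0.28 with a steer left out. PECAM1 (-0.01 as reported) was 0.022 with quantile normalization and limma, 0.19 with the leading label number as a term, 0.066 with age as a term, and between -0.19 and 0.19 with a steer left out. With a steer left out TIE1 lay between -0.18 and 0.67 and ENG between -0.027 and 0.25. The cause was not tested. VEGFB had an unadjusted p of 0.0244 without steer 3-8, 0.0225 without 10-16, and between 0.107 and 0.339 without any other steer by edgeR. Library totals alone moved the median of all tested rows from 0.02 to -0.05. KDR and TIE1, the 2 genes with the fewest counts, have the widest counting intervals relative to their counts. No paired analysis was possible because the labels match no steer of one group to a steer of the other. The leading label number, which both groups share, was used as a term in place of a pairing, and none of the 10 genes had an adjusted p below 0.05 with it.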
